A study of Mus musculus with 14 samples.

Results

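Clonal B cells that transcribed the constant-region gene of IgE (Ighe) were set against clonal B cells of the same tumor nodule that transcribed the constant-region gene of IgA (Igha). Clone cells were the cells that carried the commonest light chain of their nodule's B cell receptor (BCR) library, were present in the RNA library and had at most 10% mitochondrial UMIs. A UMI is a molecular tag that marks a captured transcript. A clone cell was placed on the Ighe side when it held at least 2 Ighe UMIs and 0 Igha UMIs, and on the Igha side when it held at least 2 Igha UMIs and 0 Ighe UMIs. Nodules with at least 20 cells on both sides entered the comparison. These were the nodules of mouse 33, with 346 Ighe-side and 34 Igha-side cells, and of mouse 34, with 22 Ighe-side and 328 Igha-side cells. The 730 cells on the sides are part of 8545 clone cells in 5 BCR nodules and of 77442 deposited cells in 7 nodules. The cells were chosen by their Ighe and Igha UMIs, so the levels of these genes are a description and were not tested.

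All nodules came from sick Eif3e fl/fl Cγ1Cre Rosa26-YFP LSL mice (cKO), in which activated B cells that transcribe the γ1 constant-region gene express Cre and delete a subunit of the translation initiation complex eIF3. No nodule of a control mouse was analysed here. Each mouse gave 1 nodule library of total cells. Nodules with a BCR library came from the liver of mouse 27 (12 mo old), the lung of mouse 29 (12 mo), the spleen of mouse 31 (13 mo), the thymus of mouse 33 (16 mo) and the lung and thymus of mouse 34 (9 mo). The liver nodule had been grown in an immunodeficient recipient of primary tumor cells, and the others were primary. Site, age and mouse cannot be told apart. Clone cells held a median of 13825.5 UMIs in mouse 33 and 11279.5 in mouse 34, and medians of 9367 to 11424 in the other nodules.

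B cells exchange the constant region of their antibody by class switch recombination, in which breaks are made before a pair of constant-region genes and the DNA between them is lost. The heavy-chain constant genes are ordered on the chromosome with Ighm and Ighd first, the Ighg genes next, then Ighe and finally Igha, so a chromosome that has switched to Ighe can still switch to Igha but not the reverse. Each constant gene also gives germline transcripts, which arise before switching and encode no antibody. IgE is known for allergic responses, and IgA is the antibody of mucosal surfaces. In RefSeq on GRCm38.p6, the build that the labels also name, Ighe lies at chr12:113269263-113273248 and Igha at chr12:113256204-113260236, with Ighg1 at chr12:113326541-113330523 and Ighm at chr12:113418826-113422730. Each is annotated as a constant-region (C_region) gene. An Ighe or Igha UMI in these files does not tell a switched transcript from a germline transcript.

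The receptor sequences are shown because they define the clones and because each heavy chain shown was found on both sides. They are the nucleotides that encode the third complementarity-determining region (CDR3), the junction at which V, D and J segments are joined, written 5′ to 3′ from the deposited contigs. Capitals mark bases that differ from the first heavy chain of the same mouse, in sequences of equal length.
Mouse 33, light chain (IGLV2, IGLJ2): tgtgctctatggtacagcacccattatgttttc
Mouse 33, heavy chain 1 (IGHV9-3, IGHJ3): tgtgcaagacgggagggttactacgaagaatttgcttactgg
Mouse 33, heavy chain 2 (IGHV9-3, IGHJ3): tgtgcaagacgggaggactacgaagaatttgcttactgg
Mouse 33, heavy chain 3 (IGHV9-3, IGHJ3): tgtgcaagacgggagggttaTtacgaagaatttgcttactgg
Mouse 34, light chain (IGKV1-135, IGKJ5): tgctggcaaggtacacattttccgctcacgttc
Mouse 34, heavy chain 1 (IGHV9-1, IGHJ2): tgtactagagaggatgactattgg
Mouse 34, heavy chain 2 (IGHV9-1, IGHJ2): tgtactagagaAgTtgCctattgg
Mouse 34, heavy chain 3 (IGHV9-1, IGHJ2): tgtactagagaggTtgactattgg
In mouse 33, heavy chains 1 and 3 have 42 bases and differ by C21T, counted from 1 at the 5′ end, and heavy chain 2 has 39 bases. In mouse 34 all 3 heavy chains have 24 bases. Heavy chain 2 differs from heavy chain 1 by G12A, A14T and A17C, and heavy chain 3 by A14T.

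Clone cells of all 5 BCR nodules held Ighe transcripts, whereas the Igha level differed widely between nodules. Summed over clone cells, Ighe stood at 444 CPM for mouse 27 (UMIs of the gene per all UMIs of these cells, scaled to counts per mega-UMI). It was 182 CPM for mouse 29, 212 for mouse 31, 128 for mouse 33 and 120 CPM for mouse 34. Mouse 27 was the highest of the nodules for Ighe, and mice 33 and 34 were the lowest. Igha was at 70.5 CPM for mouse 27, 1.58 for mouse 29, 11.0 for mouse 31, 47.2 for mouse 33 and 333 CPM for mouse 34. Levels are compared between nodules and not between the genes. The Igha level of mouse 34 was above that of every other nodule. With 1 nodule per mouse, these levels carry no replicate error.

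**Figure D1:**
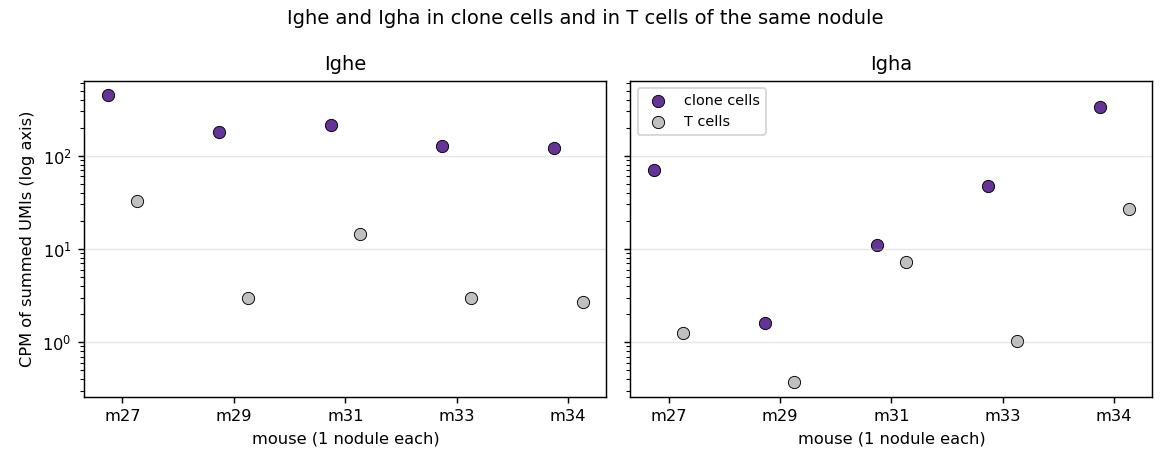
Ighe (left) and Igha (right) as CPM of summed UMIs on a log axis, for each mouse with a BCR library, in clone cells (purple) and in T cells without a BCR contig (gray). Igha in clone cells spans 1.58 CPM in mouse 29 to 333 CPM in mouse 34, and T cells lie below the clone cells of their nodule for both genes.

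T cells served to measure transcripts carried by free RNA, since they make neither gene product. They were cells without a BCR contig that held at least 2 UMIs of the CD3 chain genes and none of 4 B cell genes. Ighe stood at 2.94 CPM in 2556 T cells of mouse 33 and at 2.69 CPM in 587 T cells of mouse 34, and Igha at 1.03 and 26.5 CPM. At the threshold of 2 UMIs, 0.0782% of T cells in mouse 33 held Ighe and 0% held Igha, and in mouse 34 these shares were 0% and 1.53%. In clone cells the same shares were 50.5% for Ighe and 15.4% for Igha in mouse 33, and 39.0% and 83.7% in mouse 34. T cells were shallower, with median UMIs of 3917 and 2744. With all cells thinned to 1000 UMIs, 3.87% of T cells and 30.6% of clone cells of mouse 34 held an Igha UMI, and 0.119% and 3.82% in mouse 33. For Ighe, the thinned shares were 0.474% of T cells and 11.5% of clone cells in mouse 33, and 0.352% and 12.1% in mouse 34. In mouse 31, where Igha stood at 11.0 CPM in clone cells, 463 T cells held it at 7.25 CPM.

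Many clone cells held transcripts of both genes and so fell on neither side. Cells with at least 1 UMI of each gene made up 65.8% of clone cells of mouse 34, 25.5% for mouse 33, 21.4% for mouse 27, 8.65% for mouse 31 and 1.29% for mouse 29. Cells with at least 2 UMIs of each numbered 495 in mouse 34 (35.0%) and 90 in mouse 33 (8.38%). In mouse 34 they outnumbered the cells of both sides. The Ighe side held 32.2% of clone cells in mouse 33 (95% Clopper-Pearson interval 29.4 to 35.1%) and 1.55% in mouse 34 (0.976 to 2.34%). The Igha side held 3.17% in mouse 33 (2.20 to 4.40%) and 23.2% in mouse 34 (21.0 to 25.5%). In the remaining nodules the Ighe side held 1081, 137 and 2172 cells in mice 27, 29 and 31, and the Igha side held 15, 0 and 16 cells. The 0 of 309 clone cells on the Igha side in mouse 29 allows a share of up to 1.19%. These intervals cover counting error only.

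**Figure D2:**
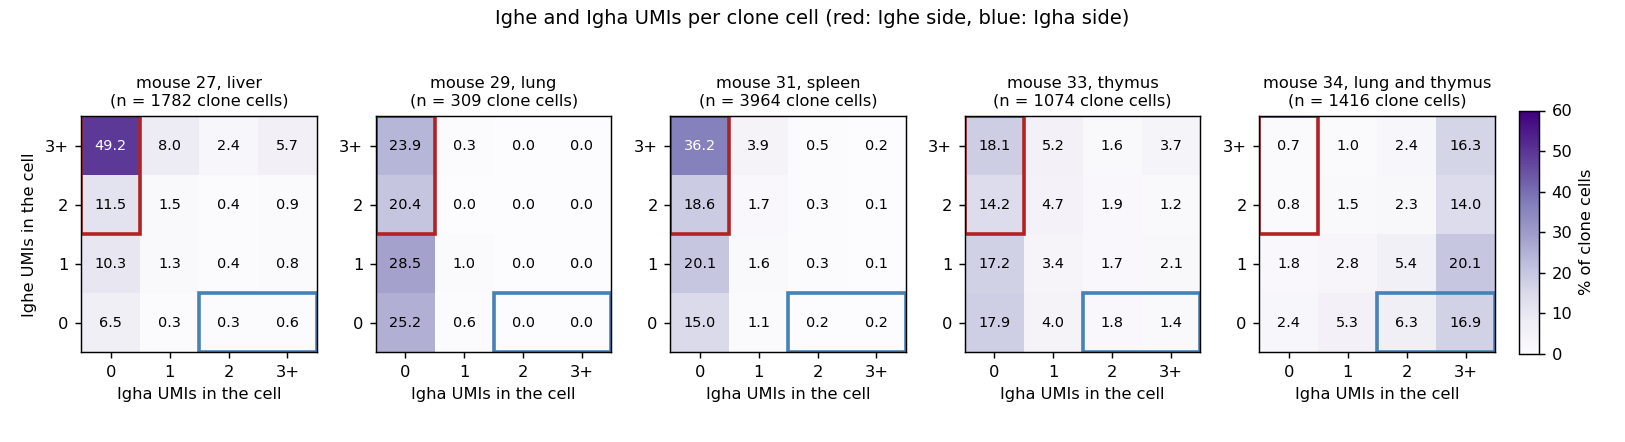
Share of clone cells (number and color, in percent) by Ighe UMIs (vertical axis) and Igha UMIs (horizontal axis) in each BCR nodule. The red frame is the Ighe side and the blue frame the Igha side. In mouse 34 the cells with 3 or more UMIs of Igha spread over every Ighe count, whereas in every other nodule most cells lie in the column with 0 Igha UMIs.

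The sides lie close to their threshold. In mouse 33, 152 of 346 Ighe-side cells held exactly 2 Ighe UMIs, and 185 further cells with 1 Ighe UMI and 0 Igha UMIs fell just outside. On the Igha side of mouse 33, 19 of 34 cells held exactly 2 Igha UMIs, and 43 cells with 1 fell outside. In mouse 34, 12 of 22 Ighe-side cells and 89 of 328 Igha-side cells were at 2 UMIs. A further 35 cells of mouse 34 held at least 2 Ighe UMIs and 1 Igha UMI, which is more than the Ighe side itself. The most UMIs of the chosen gene in 1 cell were 37 on the Ighe side and 12 on the Igha side of mouse 33, and 5 and 17 in mouse 34.

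At equal depth, Igha was found in similar shares of cells with and without Ighe. Clone cells were thinned to 5000 UMIs each, which left out 47 of 1074 cells in mouse 33 and 75 of 1416 in mouse 34. In mouse 33, 18.3% of the cells with Ighe and 18.3% of the cells without Ighe held an Igha UMI. In mouse 34 the shares were 82.5% and 77.5%, in mouse 27 they were 16.4% and 15.2%, and in mouse 31 they were 5.18% and 5.77%. The shares differed by at most 5 percentage points in these 4 nodules. In mouse 29 no cell with Ighe and 1.89% of the cells without it held Igha, over 3 cells with Igha in all. Cells of 1 nodule are not replicates, and these shares were not tested. After thinning, the Ighe side held 121 cells in mouse 33 and 32 in mouse 34, and the Igha side 32 and 339.

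Constant regions called on the receptor contigs gave a second view of isotype, from the V(D)J libraries, of which the choice of cells had used the light chains only. Where a cell had several heavy contigs, the one supported by most UMIs gave its call. In mouse 34 every cell with a heavy contig was called IGHA, on both sides: 296 of 296 on the Igha side and 19 of 19 on the Ighe side. The 0 of 19 Ighe-side cells called IGHE allows a share of up to 17.6% (Clopper-Pearson). Of the 495 cells of mouse 34 with at least 2 UMIs of each gene, 451 had a heavy contig, and all 451 were called IGHA. A further contig called IGHE was found in 2 of them. In mouse 33, 170 Ighe-side cells had a heavy contig, of which 42 were called IGHE, 13 IGHA and 7 IGHM, and 108 had no constant-region call. Among the 62 with a call, IGHE made up 67.7% (54.7 to 79.1%). On the Igha side of mouse 33 only 9 cells had a heavy contig, with 2 called IGHE, 1 IGHA, 1 IGHM and 5 without a call, so the calls of the sides could not be told apart at this number of cells. The 11 Igha-side cells of mouse 31 with a heavy contig were all called IGHE.

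**Figure D3:**
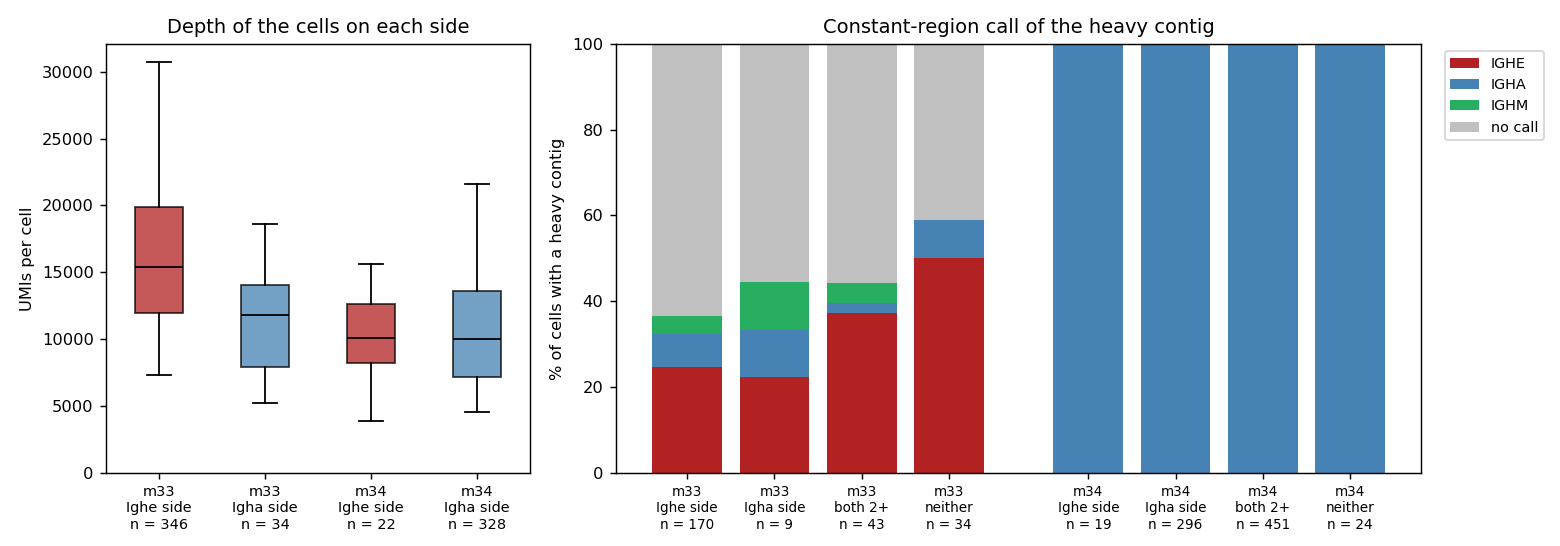
Left, UMIs per cell on each side in mice 33 and 34 (line, median; box, quartiles; whiskers, 5th and 95th percentiles). Right, constant region called on the heavy contig, as percent of the cells with a heavy contig (n below each bar), for both sides, for cells with at least 2 UMIs of each gene (both 2+) and for cells with none of either. All bars of mouse 34 are IGHA, and in mouse 33 IGHE and missing calls make up most of every bar.

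Cells were also grouped first by the call of their contig, and their transcripts were then counted. Only mouse 33 had both cells called IGHE and cells called IGHA, and their levels were not tested against each other. In mouse 33, 34 cells called IGHA held Igha at 63.2 CPM and Ighe at 124 CPM, and 115 cells called IGHE held Igha at 55.1 CPM and Ighe at 150 CPM. In mouse 27, the 17 cells called IGHA held Igha at 5.67 CPM, from 1 UMI, and Ighe at 414 CPM. The 1136 heavy-contig cells of mouse 27 without a call held Igha at 70.8 CPM. In mouse 34, the 1271 cells called IGHA held Igha at 333 CPM and Ighe at 119 CPM. Missing calls were frequent in mouse 33 (240 of 402 cells with a heavy contig) and mouse 27 (1136 of 1153). Heavy contigs without a call had median lengths of 601 bases in mouse 33 and 738.5 bases in mouse 27. Contigs with a call had medians of 625.5 (IGHE), 596 (IGHA) and 676 bases (IGHM) in mouse 33, and 594 bases (IGHA) in mouse 27. A heavy contig was found for 49.1% of Ighe-side and 26.5% of Igha-side cells in mouse 33, and for 86.4% and 90.2% in mouse 34.

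The 3 heavy chains shown for each mouse were present on both sides. Cells were counted under their heavy contig with most UMIs, so a cell with several heavy chains counts once. In mouse 34, heavy chain 1 was that contig in 235 of 296 Igha-side cells (79.4%, 74.3 to 83.9%) and 12 of 19 Ighe-side cells (63.2%, 38.4 to 83.7%), and heavy chain 2 in 47 and 5 cells. These intervals overlap. Over all clone cells of mouse 34, the 966 cells counted under heavy chain 1 held Igha at 331 CPM and Ighe at 114 CPM, and the 214 counted under heavy chain 2 held them at 349 and 131 CPM. In mouse 33, heavy chain 1 was that contig in 107 of 170 Ighe-side cells (62.9%, 55.2 to 70.2%) and 3 of 9 Igha-side cells (33.3%, 7.49 to 70.1%), and heavy chain 2 in 43 and 4 cells. A heavy chain of IGHV9-3 and IGHJ2, with another J segment than the chains shown, was that of 8 Ighe-side cells and 1 Igha-side cell that share the light chain. The 261 cells of mouse 33 counted under heavy chain 1 held Ighe at 141 CPM, and the 95 under heavy chain 2 held it at 200 CPM. More than 1 heavy chain was found in 306 of 1271 cells of mouse 34, and heavy chains 1 and 2 together in 295 of these, with 66 on the Igha side and 2 on the Ighe side. In mouse 33 more than 1 heavy chain was found in 5 of 402 cells.

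The sides differed in depth in mouse 33. Ighe-side cells held a median of 15401.5 UMIs and 3648 genes, and Igha-side cells 11824.5 UMIs and 2707.5 genes, a ratio of 1.30 in UMIs. In mouse 34 the medians were 10107.5 and 10010.5 UMIs (ratio 1.01) and 3221.5 and 3206 genes. Cells with at least 2 UMIs of both genes were the deepest class in each, with medians of 20215 UMIs in mouse 33 and 14219 in mouse 34. Median mitochondrial shares were 1.67% and 1.64% on the Ighe and Igha sides of mouse 33, and 1.35% and 1.61% in mouse 34. Mice 33 and 34 shared 100 cell barcodes among all deposited cells and 0 among the cells on the sides.

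Cells of both sides expressed B cell genes. The 19 genes of B cell identity and receptor signaling summed to 3169 CPM on the Ighe side and 3248 CPM on the Igha side of mouse 33, and to 6009 and 5879 CPM in mouse 34, beside 247 and 335 CPM in T cells. The 10 T cell markers summed to 36.6 and 25.5 CPM in mouse 33 and to 13.5 and 101 CPM in mouse 34, beside 3094 and 3506 CPM in T cells. On the Ighe side of mouse 34, 9 of the 10 were at 0, Cd3d, Cd3e and Trac among them. At least 2 CD3 UMIs were held by 10 of 346 Ighe-side and 0 of 34 Igha-side cells in mouse 33, and by 0 of 22 and 21 of 328 in mouse 34. The 10 macrophage and monocyte markers summed to 53.2 and 38.2 CPM in mouse 33 and to 35.9 and 89.6 CPM in mouse 34, and Lyz2, the lysozyme of macrophages and granulocytes, stood at 16.6, 0, 8.97 and 71.0 CPM in this order. The 8 neutrophil markers summed to at most 5.09 CPM on any side, the 6 erythroid markers to at most 17.5 CPM and the 8 stromal and epithelial markers to at most 37.8 CPM. On the Ighe side of mouse 34 these sums rest on few UMIs, and the floor of 3 UMIs there is 13.5 CPM. The part of these cell types in the comparison was not tested.

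Beyond the genes that chose the cells, Ect2 and Xist were called higher on the Ighe side and Ccl5, Ifit1 and Marcks higher on the Igha side. UMIs were summed per nodule and side, and the sides were compared with edgeR's quasi-likelihood test with mouse as a block, over 9430 genes. An adjusted p (Benjamini-Hochberg) under 0.05 was reached by 5 genes (0.053% of those tested), 2 higher on the Ighe side (0.0212%) and 3 higher on the Igha side (0.0318%). An unadjusted p under 0.05 was reached by 404 genes (4.28%), 174 higher on the Ighe side (1.85%) and 230 on the Igha side (2.44%). The difference had the same sign in both nodules for 4704 genes (49.9%). The fit has 1 residual degree of freedom, since 2 nodules give 4 sums. A gene that did not pass is thus not shown to be equal on the sides. edgeR's prior degrees of freedom were infinite, so each gene's error (±) and p used a spread shared over genes. They do not measure the gene's own spread between the 2 nodules. Of the 9 other fits, 2 called any gene, each with 5 calls, and 7 called none. DESeq2 was among the latter (0 genes, 23 at an unadjusted p under 0.05).

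**Figure D4:**
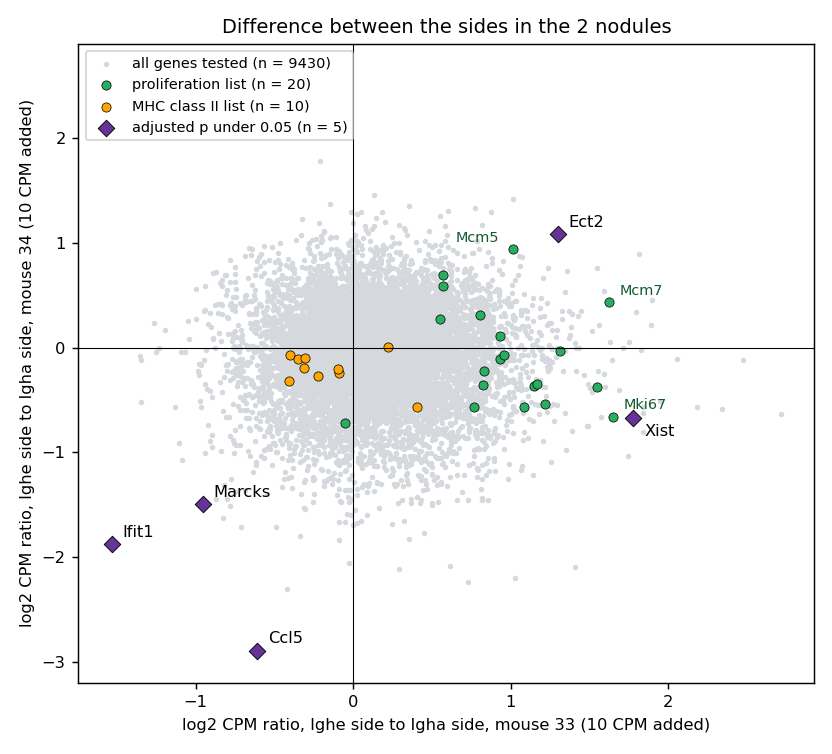
Log2 ratio of CPM on the Ighe side to CPM on the Igha side, with 10 CPM added to each, in mouse 33 (horizontal) and mouse 34 (vertical) for all 9430 genes tested (gray). The 5 genes past the test are purple diamonds, the proliferation list is green and the MHC class II list orange. Of the 5 genes, Xist has opposite signs in the nodules.

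Ect2, an exchange factor for small GTPases needed to complete cell division, was higher on the Ighe side in both nodules. It stood at 52.3 CPM on the Ighe side and 15.3 on the Igha side of mouse 33, and at 153 and 66.5 CPM in mouse 34. The Poisson intervals of the sides do not overlap in either nodule, although the low value of mouse 33 rests on 6 UMIs. These intervals cover counting error only, and Ect2 was singled out by the test on the same sums, so they add no separate support. The log2 fold change was 1.29 ± 0.30 (SE from the fit, 2 nodules, edgeR adjusted p = 0.0431). That error does not measure the spread of Ect2 between the nodules. In the depth-matched cells the log2 fold change was 1.21 (adjusted p = 0.997). With sides defined by at least 1 UMI, it was 0.59 (adjusted p = 0.191).

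Marcks, which encodes an actin-binding substrate of protein kinase C, was higher on the Igha side. It stood at 39.9 CPM on the Ighe side and 86.6 on the Igha side of mouse 33, and at 17.9 and 68.8 CPM in mouse 34, where the Ighe side held 4 UMIs. The log2 fold change was -1.42 ± 0.32 (edgeR adjusted p = 0.0204). With sides defined by at least 1 UMI, which admits 4 nodules, it was -0.0030 (adjusted p = 0.999).

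Ccl5, a chemokine that attracts T cells and is made in quantity by effector T cells, stood at 243 CPM on the Ighe side and 377 on the Igha side of mouse 33, and at 26.9 and 264 CPM in mouse 34. Its log2 fold change was -1.38 ± 0.23 (edgeR adjusted p = 2.85e-05). T cells held it at 15441 CPM (mouse 33) and 7479 CPM (mouse 34), and the T cell markers were also higher on the Igha side in mouse 34 but not in mouse 33. The part of T cell transcripts in the difference was not tested beyond the next value. Without cells that held at least 2 CD3 UMIs or more than 1 light chain, the log2 fold change was -1.30 (adjusted p = 0.174). In the depth-matched cells the sign turned, at 1.34 (adjusted p = 0.246).

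Ifit1, an interferon-induced gene, stood at 1.38 CPM on the Ighe side and 22.9 on the Igha side of mouse 33, from 8 and 9 UMIs, and at 0 and 26.8 CPM in mouse 34. The Ighe side of mouse 34 held 0 UMIs, below a floor of 13.5 CPM. The log2 fold change was -4.29 ± 0.84 (edgeR adjusted p = 0.00164), which with that 0 is no bound on the fold. T cells held Ifit1 at 90.6 and 207 CPM, and the clone cells on neither side at 3.69 CPM (mouse 33) and 18.5 CPM (mouse 34). With sides defined by at least 1 UMI the sign turned, at 0.25 (adjusted p = 0.982).

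Xist, the noncoding RNA that silences an X chromosome, stood at 392 CPM on the Ighe side and 107 on the Igha side of mouse 33, and at 0 and 5.92 CPM in mouse 34. Its log2 fold change of 1.49 ± 0.30 (edgeR adjusted p = 0.00182) rests on mouse 33. In mouse 34 the ratio had the other sign (log2 -0.67, 10 CPM added), and DESeq2 gave a log2 fold change of -0.083. Clone cells on neither side of mouse 33 held Xist at 266 CPM, and those of mouse 34 at 4.03 CPM. T cells held it at 571 CPM (mouse 33) and 453 CPM (mouse 34).

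**Figure D5:**
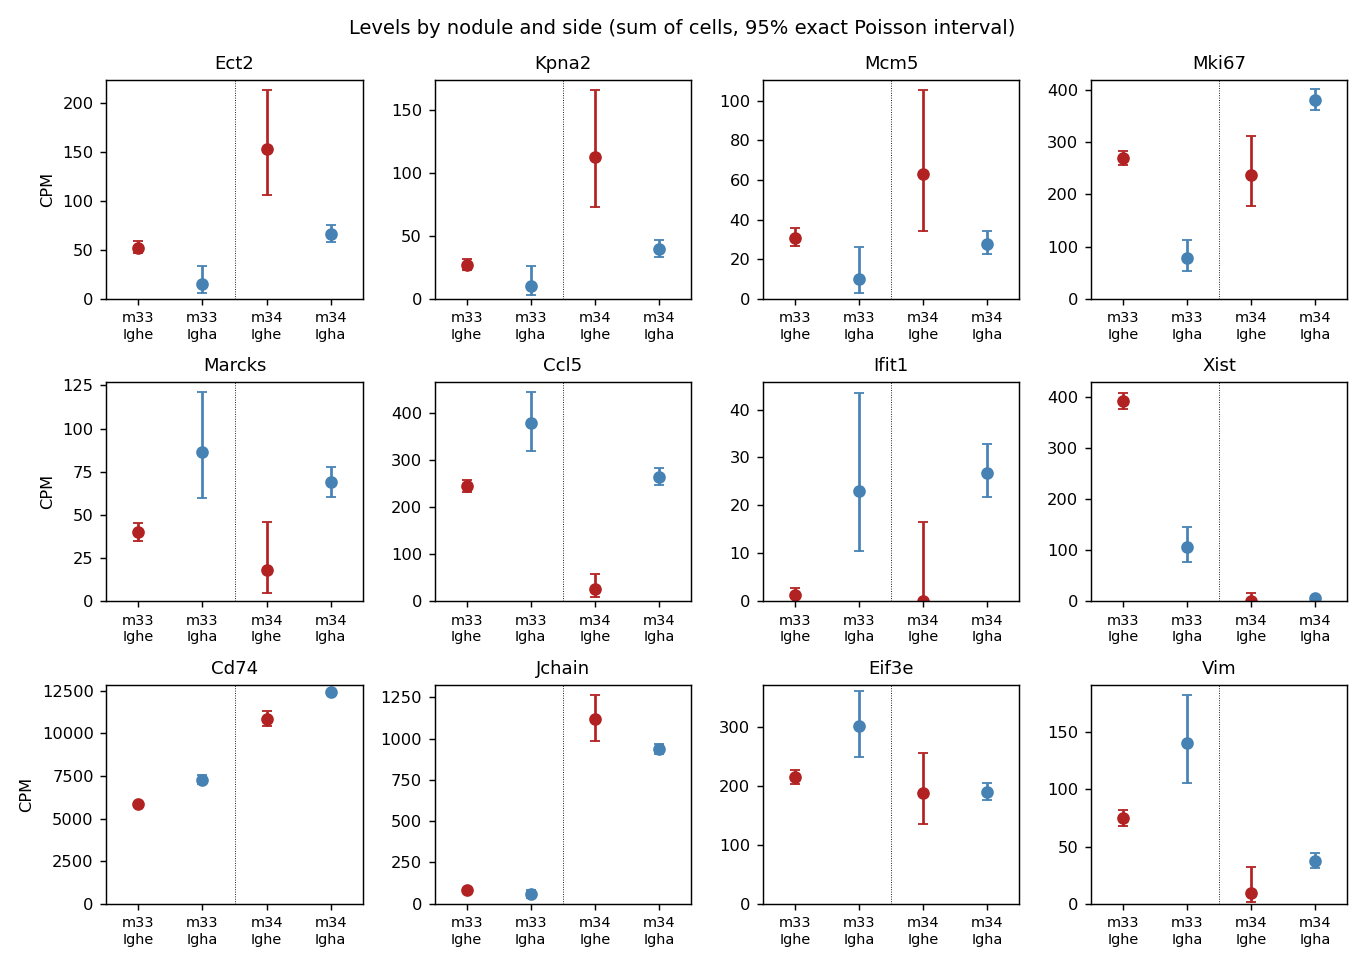
CPM of 12 genes by nodule and side (red, Ighe side; blue, Igha side), from the UMIs summed over the cells of a side, with 95% exact Poisson intervals, which cover counting error only. Ect2, Kpna2 and Mcm5 lie higher on the Ighe side in both nodules, and Marcks, Ccl5 and Vim higher on the Igha side in both. Mki67 and Xist differ in direction between the nodules. Kpna2 and Vim were picked among genes of equal sign in both nodules, so their agreement was fixed by the choice.

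The genes with the smallest p below these did not pass the test. They were taken only from genes with the same sign in both nodules, so that agreement was fixed by the choice. On the Ighe side they were Kpna2, a nuclear import receptor (27.1 and 10.2 CPM in mouse 33, 112 and 39.7 CPM in mouse 34, Ighe side first), Cenpi, a component of the centromere, Hspb1, a small heat shock protein, Znrd2, Tnfsf9, the ligand of the costimulatory receptor 4-1BB, and Nol8, a nucleolar protein. Their log2 fold changes lay between 0.86 for Tnfsf9 and 2.09 for Hspb1, with edgeR adjusted p from 0.269 to 0.592. Cenpi and Hspb1 had 0 UMIs on the Igha side of mouse 33. On the Igha side they were Gm33843 (-1.69, edgeR adjusted p = 0.0589), Csnk1g3, a casein kinase, Vim, an intermediate filament protein, Pkib, an inhibitor of protein kinase A, and Capg, which caps actin filaments. Vim stood at 74.9 and 140 CPM in mouse 33 and at 8.97 and 37.2 CPM in mouse 34, with Ighe-side values from 434 and 2 UMIs, and at 967 and 724 CPM in T cells.

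No member of the 20-gene proliferation list passed the test. Of the 20, 7 were higher on the Ighe side in both nodules and 1 was lower in both. Over all genes tested, 49.9% had the same sign in both, counting either direction. In mouse 33, 19 of the 20 were higher on the Ighe side, with a median log2 ratio of 0.95, beside 62.6% of all genes tested and their median of 0.12. In mouse 34, 7 of 20 were higher on the Ighe side, with a median of -0.16, beside 45.0% of all genes and a median of -0.04. In the fit the median log2 fold change of the list was 0.49, beside -0.01 for all genes. Mki67, the Ki-67 antigen of cycling cells, stood at 269 and 79.0 CPM on the Ighe and Igha sides of mouse 33, and at 238 and 381 CPM in mouse 34. Top2a, the topoisomerase of dividing cells, stood at 328 and 135 CPM and at 193 and 284 CPM. The Ighe side was the higher in mouse 33 and the lower in mouse 34 for both genes.

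An unadjusted p under 0.05 was reached by 5 of the 20 genes, all higher on the Ighe side, where 1.85% of all genes reached it. They were Ube2c, an E2 enzyme of the anaphase-promoting complex, and Mcm4, Mcm5, Mcm6 and Mcm7, subunits of the replicative helicase, and were singled out after their values were seen. Mcm5 stood at 30.9 and 10.2 CPM in mouse 33 and at 62.8 and 27.9 CPM in mouse 34, and Mcm7 at 44.3 and 7.64 CPM and at 67.3 and 47.1 CPM. The Igha-side values of mouse 33 rest on 4 and 3 UMIs. In depth-matched cells 13 of the genes could be tested, with a median log2 fold change of 0.25 and 2 at an unadjusted p under 0.05. With sides defined by at least 1 UMI, 12 of 20 reached an unadjusted p under 0.05, all higher on the Ighe side, and none passed after adjustment.

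MHC class II genes, which present antigen to CD4+ T cells, were slightly lower on the Ighe side without passing the test. The 10 genes summed to 11546 CPM on the Ighe side and 14212 CPM on the Igha side of mouse 33, and to 19183 and 21539 CPM in mouse 34. Both sums were higher on the Igha side. Of the 10 genes, 8 were lower on the Ighe side in both nodules and 1 was higher in both. Over all genes tested, 49.9% had the same sign in both, counting either direction. The median log2 fold change was -0.32, beside -0.01 for all genes. Only H2-Oa, a chain of the class II modulator DO, had an unadjusted p under 0.05 (-0.51, edgeR adjusted p = 0.999), where 2.44% of all genes were at that level and higher on the Igha side. Cd74, the invariant chain, stood at 5866 and 7293 CPM in mouse 33 and at 10864 and 12413 CPM in mouse 34. In the depth-matched cells the median of the list was -0.05.

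No gene of class switching passed the test. Of 26 genes for switching and germline transcription, 16 had a positive and 10 a negative log2 fold change (median 0.13, beside -0.01 for all genes tested). Batf, a transcription factor needed for switching, stood at 306 and 247 CPM on the Ighe and Igha sides of mouse 33 and at 965 and 1017 CPM in mouse 34, and Id2, an inhibitor of E proteins, at 300.3 and 318 CPM and at 323 and 362 CPM. Unadjusted p under 0.05 was found for Hmces, which shields abasic sites in DNA (0.57, adjusted p = 0.999 in edgeR), and for Runx3, a factor in Igha germline transcription (-0.74, adjusted p = 0.999 in edgeR), both singled out after their values were seen. Over all genes, 1.85% were at that level and higher on the Ighe side, and 2.44% at that level and higher on the Igha side.

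No other antibody gene passed the test between the sides. Jchain, which joins IgA and IgM into polymers, stood at 81.4 and 56.0 CPM on the Ighe and Igha sides of mouse 33 and at 1117 and 937 CPM in mouse 34 (log2 fold change 0.28 ± 0.24, edgeR adjusted p = 0.999). With sides at 1 UMI or more its sign turned (-0.25). Ighm was seen with 5, 0, 0 and 5 UMIs and Ighg1 with 0 UMIs on every side, too few to be tested, and 0 UMIs of Ighg1 on the Ighe side of mouse 33 set a floor of 0.518 CPM. Of 11 other constant genes, 5 could be tested and none passed. Igkc, the κ constant gene, stood at 111 and 81.5 CPM in mouse 33, whose clone uses a λ chain, and at 552 and 476 CPM in mouse 34. The light-chain V segments of the clones stood at 1588 and 1528 CPM (Iglv2, mouse 33) and at 4424 and 4046 CPM (Igkv1-135, mouse 34). The heavy-chain segment Ighv9-3 of mouse 33 stood at 806 and 614 CPM, with Poisson intervals that do not overlap (783 to 830 and 539 to 697 CPM), and Ighv9-1 of mouse 34 at 1674 and 1867 CPM. Those intervals cover counting error only, and neither segment passed the test. V and constant genes of one family share sequence, so UMIs of paralogs may have been counted across them.

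Plasma cell, germinal center, B cell identity and activation genes also gave no call. Of 16 tested plasma cell and secretion genes, none had an unadjusted p under 0.05, and the median log2 fold change was 0.17, beside -0.01 for all genes tested. Hspa5, the chaperone BiP of the endoplasmic reticulum, stood at 855 and 520 CPM in mouse 33 and at 1032 and 983 CPM in mouse 34, and Mzb1, a factor in antibody secretion, at 427 and 459 CPM and at 503 and 419 CPM. The 17 tested germinal center genes had a median of -0.03, with Gcsam and Gpr183 at an unadjusted p under 0.05 and higher on the Ighe side in the fit, where 1.85% of all genes were. These and the next genes named for such a p were singled out after their values were seen. Gpr183, a receptor that guides B cells to the outer follicle, stood at 150 and 71.3 CPM in mouse 33 and at 0 and 7.33 CPM in mouse 34, in opposite directions. The 18 tested B cell identity and signaling genes had a median of -0.07, with Cd79a, a chain of the BCR, at 252 and 339 CPM in mouse 33 and at 1140 and 1185 CPM in mouse 34.

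The 19 tested activation and costimulation genes had a median of -0.09, and 2 reached an unadjusted p under 0.05, both higher on the Igha side, where 2.44% of all genes reached it. These were Tnfsf4, the OX40 ligand (12.9 and 48.4 CPM in mouse 33, 0 and 3 UMIs in mouse 34), and Egr1, an early response gene (114 and 153 CPM, 301 and 367 CPM). Stress and RNA quality genes had a median of -0.14 over 11 tested, with Junb and Fosb, early response factors induced by dissociation, at an unadjusted p under 0.05 and higher on the Igha side. Junb stood at 144 and 204 CPM in mouse 33 and at 301 and 397 CPM in mouse 34. No gene of either list passed after adjustment.

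Eif3e, the gene that Cre deletes in activated B cells of these mice, did not differ between the sides by the test. The paper reports that B cells of the tumors lacked YFP and held eIF3e protein in normal amounts. Eif3e (ENSMUSG00000022336) stood at 214 CPM on the Ighe side and 301 on the Igha side of mouse 33, and at 188 and 190 CPM in mouse 34, with a log2 fold change of -0.39 ± 0.22 (edgeR adjusted p = 0.999). The Poisson intervals of the sides do not overlap in mouse 33 and overlap in mouse 34. They cover counting error only, so a gap between them in 1 nodule is not shown to be a difference between the sides. The 14 subunit genes of eIF3 had a median log2 fold change of -0.01 with 6 positive and 8 negative, and none had an unadjusted p under 0.05. Eif3f stood at 631 and 713 CPM in mouse 33 and at 839 and 870 CPM in mouse 34.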

How the data were processed

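Nodule cells of cKO mice were profiled by droplet single-cell RNA sequencing with matched BCR libraries. RNA values are deposited as unnormalized UMI counts for 32285 genes, aligned by the authors to GRCm38 per the labels (counter not given in the sources used here). The labels name a 5′ kit and the study's methods a 3′ kit for RNA, so the end counted is unsettled. The authors assembled BCR contigs with SeekSoulTools. Contig counts are UMIs. Sequence positions come from RefSeq.

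Only cells with at most 10% mitochondrial counts were used. Doublets were not called, and cells with 2 CD3 UMIs or a second light chain were left out in an alternative. Members and gene lists were chosen with earlier results of these data known. Named genes were those with an adjusted p under 0.05, the 8 of smallest p per direction with equal sign in both nodules, the 4 most abundant members of each list, and fixed genes such as Eif3e, Ighm, Ighg1 and Jchain. Of these, the text gives those that bear on a result, and some are not reported here.

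UMI counts were summed per nodule and side (222851 to 5795152 UMIs) and compared with edgeR 4.0.16 in R 4.3.3 (TMM, filterByExpr, quasi-likelihood test, mouse as block since both sums share the animal, Ighe and Igha left out). DESeq2 1.42.0 was an alternative. CPM are per summed UMIs. Log2 ratios of single nodules had 10 CPM added. The fit was tested on simulated data. Intervals are 95% and cover counting error only.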

Additional observations from a re-analysis of the deposited data

Results flagged for a closer look

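Ighe stood at 444 CPM in clone cells of mouse 27, against 120 to 212 CPM in the other BCR nodules, and the gap to the next nodule was 0.715 of the whole range. Igha stood at 333 CPM in clone cells of mouse 34, against 1.58 to 70.5 CPM elsewhere, a gap of 0.792 of the range. Both gaps are above Dixon's 95% critical value for 5 samples, which chance passes in about 1 in 20 groups when a single measure is checked. Several levels and shares of both genes were checked at the high and the low end, so that rate does not hold for the set. The gaps are given as a description. Clone cells of the nodules left out of the comparison also held Igha, at 70.5 CPM in mouse 27 (1.24 CPM in its T cells), 1.58 CPM in mouse 29 (0.369 CPM) and 11.0 CPM in mouse 31 (7.25 CPM).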

How the results depend on the processing

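Of the 9 other fits, those without a filter on low counts and without immunoglobulin genes each called 5 genes, of which 3 and 5 were shared with the reported calls. The count was 0 with DESeq2, 0 without the replicate block (the mouse, 10 genes at an unadjusted p under 0.05), 0 with sides at 1 UMI or more, 0 in depth-matched cells, 0 at a mitochondrial limit of 5%, 0 without possible doublets and 0 with a limit of 15 cells, which was chosen after seeing the data. The smallest adjusted p of the last 5 lay between 0.0610 and 0.108. edgeR's prior degrees of freedom were infinite in the fits with calls and at most 52.4 in the other edgeR fits, and the cause of the lost calls was not tested. Sides at 3 UMIs or more, and cells of the commonest heavy chain, left no nodule with 20 cells on both sides. Leaving out either mouse leaves 1 nodule and no test.

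The sign turned for Ccl5 in depth-matched cells (log2 1.34), for Ifit1 at 1 UMI or more (0.25) and for Xist with DESeq2 (-0.083). Without 1 mouse Xist ranged from -0.67 (without mouse 33) to 1.78. Of genes that did not pass, Vim turned at 1 UMI or more (0.026) and Jchain at 1 UMI or more (-0.25) and with 15 cells (-0.20). Ect2 and Marcks kept their sign in the 11 alternatives, but not their size. Ect2 ranged from 0.590 (1 UMI or more) to 1.37, and Marcks from -1.53 to -0.0030 (1 UMI or more). The alternatives reuse many of the same cells, so an equal sign is no independent support.

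The Ighe side of mouse 33 held 49.4% of clone cells at 1 UMI or more, 18.1% at 3, 41.2% within the commonest heavy chain and 11.8% after thinning to 5000 UMIs, and its Igha side 7.17%, 1.40% and 1.15% in the first 3 settings. In mouse 34 the Ighe side held 3.32% at 1 UMI, 0.706% at 3 and 2.39% after thinning, and the Igha side 28.5% at 1 and 16.9% at 3. At 3 UMIs, IGHA calls made up 3.06% and IGHE calls 30.6% of 98 cells with a heavy contig on the Ighe side of mouse 33, and 25% and 0% of 4 on its Igha side. T cells with a UMI after thinning to 1000 UMIs made up 0.474% (Ighe) and 0.119% (Igha) in mouse 33 and 0.352% and 3.87% in mouse 34.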
